A study of Mus with 4 samples.

Results

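Fibronectin (Fn1), tenascin-C (Tnc), thrombospondin-1 and -2 (Thbs1, Thbs2), SPARC (Sparc), periostin (Postn), fibrillin-1 and -2 (Fbn1, Fbn2), elastin (Eln) and nidogen-1 (Nid1) are the matrix glycoprotein and elastic fibre genes described here. These 10 genes were chosen by symbol, out of 26893 gene symbols on the array, with earlier results of these data known. Every probe that carries one of the symbols was followed, 27 probes in all. Total RNA came from an immortalized murine podocyte cell line, differentiated without interferon-γ. Of the samples, 2 had received a lentivirus for venus, a fluorescent protein used as the control, and 2 had received a lentivirus for the active, N-terminal form of OASIS/Creb3l1 from a pCSII-EF vector. All 4 samples were exposed to virus and polybrene for 24 h, then given fresh medium with serum, and were harvested 48 h after the virus was added. Whether replicates 1 and 2 of a group were grown as separate cultures is not said in the labels, so that p-values measure only how far these samples lie apart, which may be technical.

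Podocytes rest on the glomerular basement membrane, and they make part of it. Fibronectin is a cell-adhesive glycoprotein that is assembled into fibrils through integrins, and its transcript is widely used as a marker of kidney fibrosis, as it was in this study. Tenascin-C, the thrombospondins, SPARC and periostin are matricellular proteins, which modulate how cells attach to collagen and fibronectin rather than bearing load. Fibrillins form the microfibrils on which elastin is deposited, and nidogen-1 joins the laminin and type IV collagen networks of basement membranes. OASIS, once cleaved in the Golgi membrane, enters the nucleus as a transcription factor and is known in bone for its effect on type I collagen. The comparison of the OASIS with the Venus arrays asks whether the genes of non-collagenous matrix proteins changed with it.

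By the brightest probe of each gene, none of the matrix glycoprotein or elastic fibre genes passed the threshold of the study, a fold over 2.0 or under 0.5 with an adjusted p under 0.1. Over all 16313 genes tested, 8.07% passed, 6.22% higher and 1.85% lower with OASIS. Of the 10 genes, 9 had a probe that could be tested. Their median log2 fold change was -0.043 with a range from -0.48 for Nid1 to 0.28 for Fbn1, beside -0.056 over all genes tested. For each of the 9, the 95% confidence interval of the change lay between a halving and a doubling. With limma, 0 of the 9 had an unadjusted p under 0.05. By the methods' t-test, named there for 2 groups in general and not for the array, this count was 0 as well. Among all 16313 genes tested, these counts were 6681 with limma and 5251 by the t-test. An adjusted p under 0.1 without a limit on the fold was met by 0 of the 9, beside 36.8% of all genes, 18.7% higher and 18.2% lower. That count depended on the processing, and with the mean of a gene's probes it was 5 of 9 (Fbn1 and Sparc higher, Nid1, Thbs1 and Tnc lower), beside 39.5% of all genes. Values of the groups did not overlap for 5 of the 9, with 3 higher and 2 lower, against 70.9% of all genes, 31.5% higher and 39.4% lower. With so few arrays the smallest two-sided p of an exact permutation test is 0.333, which is why limma, which draws its estimate of the spread from all probes together, was used. In bulk RNA, fewer cells that express a gene and less of its RNA per cell cannot be told apart.

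**Figure D1:**
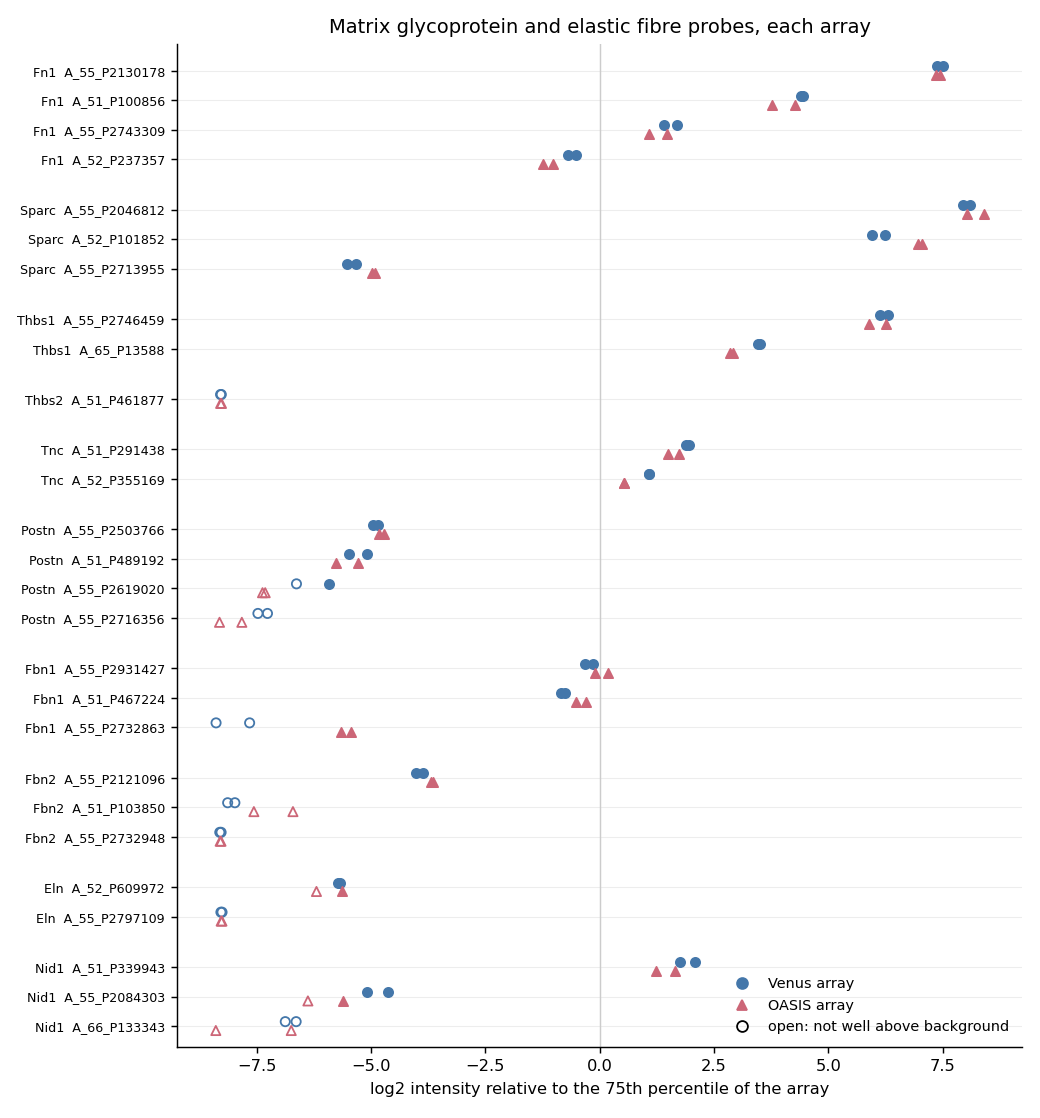
Log2 intensity of each of the 27 probes on each array, relative to the 75th percentile of that array, with Venus arrays as circles and OASIS arrays as triangles and open marks where the spot was not well above background. For most probes the marks of the groups lie within 1 log2 unit of each other, and the single Thbs2 probe is open on all arrays.

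All values are normalized log2 intensities, so that a negative value means a spot dimmer than the 75th percentile of its array. Levels of different probes are not comparable, since probes differ in how well they bind. Of the 27 probes, 17 were well above background on all arrays, 20 met the filter on background and were tested, and 6 were not well above background on any array. Of the 59305 spots that are not controls, between 33938 and 34418 were well above background on the 4 arrays, and none was saturated. Pearson's r across probes, which are not independent replicates, was 0.997 between the Venus arrays and 0.995 between the OASIS arrays. The single Creb3l1 probe read 0.71 and 0.72 with Venus and 0.61 and 0.49 with OASIS, a log2 fold change of -0.17 (SE 0.10). Its place on the transcript was not analysed here, so that it does not check the labels. Of 12 podocyte markers, 8 had a tested probe, among them Synpo, Podxl and Cd2ap. Of the 2 Nphs1 probes, 1 was well above background on a single array and the other on none.

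Fibronectin transcript did not pass the threshold by any of its probes, and its brightest probe read nearly alike in the groups. Fn1, at cytoband 1qC3, has 4 probes, 2 of them annotated to the same RefSeq transcript. The brightest, A_55_P2130178, read 7.50 and 7.38 with Venus and 7.44 and 7.36 with OASIS. These ranges overlap, and the log2 fold change was -0.043 (standard error, SE, 0.11, with an adjusted p of 0.80 by limma, as are all adjusted p-values here). Its 95% confidence interval, from -0.33 to 0.24, allows a change between 0.797-fold and 1.18-fold. The other 3 probes also had lower means with OASIS, at -0.40, -0.28 and -0.52. Only A_52_P237357, annotated to an Ensembl transcript, had an adjusted p under 0.1. It read -0.52 and -0.69 with Venus and -1.24 and -1.01 with OASIS, a log2 fold change of -0.52 (SE 0.13, adjusted p = 0.053) that is short of the 2-fold limit. The sign of the brightest probe turned, to 0.019, without Venus replicate 1.

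Among the matricellular genes, Sparc was the one with higher means by each of its probes, and Thbs1 and Tnc had lower means by each of theirs. SPARC, also called osteonectin (11qB1.3), binds collagen and shapes how it is laid down. The brightest of its 3 probes, A_55_P2046812, read 7.95 and 8.10 with Venus and 8.41 and 8.03 with OASIS, which overlap, and its log2 fold change was 0.19 (SE 0.16, adjusted p = 0.43). The next, A_52_P101852, is annotated to the same RefSeq transcript. It read 5.95 and 6.23 with Venus and 7.06 and 6.97 with OASIS. Here both OASIS arrays lay above both Venus arrays, and the log2 fold change of 0.92 had a standard error of 0.14 and an adjusted p of 0.017 by limma. That is a 1.90-fold difference with a 95% confidence interval from 1.47-fold to 2.45-fold, just short of the limit, which it passed without Venus replicate 2, at 1.07. The dimmest Sparc probe gave 0.48 with an adjusted p of 0.050.

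Thrombospondin-1 (2qE5), an activator of latent TGF-β, is read by 2 probes of the same transcript. Its brighter probe, A_55_P2746459, read 6.12 and 6.30 with Venus and 5.89 and 6.27 with OASIS, overlapping values with a log2 fold change of -0.13 (SE 0.17, adjusted p = 0.61). The dimmer one, A_65_P13588, read 3.46 and 3.51 with Venus and 2.85 and 2.92 with OASIS. The arrays of each group were close together and the groups were apart, with the OASIS mean 1.52-fold lower, at -0.60 on the log2 scale (SE 0.10, adjusted p = 0.021). Without OASIS replicate 1 the brighter probe changed sign, to 0.059. Thrombospondin-2 (17qA2), its close relative, has 1 probe, which read -8.28 and -8.29 with Venus and -8.27 and -8.29 with OASIS. It was not well above background on any array and was not tested, so that no Thbs2 signal was detectable in either group.

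Tenascin-C (4qC1), a hexameric glycoprotein of remodelling tissue, was lower on both OASIS arrays than on both Venus arrays by both probes. A_51_P291438 read 1.89 and 1.96 with Venus and 1.50 and 1.74 with OASIS, a log2 fold change of -0.30 (SE 0.13, adjusted p = 0.15). A_52_P355169 read 1.08 on both Venus arrays, and 0.52 and 0.54 with OASIS, a log2 fold change of -0.54 (SE 0.10, adjusted p = 0.024) that did not reach the 2-fold limit. Its 95% confidence interval in fold terms ran from 0.574 to 0.818.

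Periostin (3qC), a fasciclin-domain protein that promotes collagen cross-linking, was dim. Of its 4 probes, 2 were tested. A_55_P2503766 read -4.85 and -4.95 with Venus and -4.71 and -4.84 with OASIS, and A_51_P489192 read -5.48 and -5.08 with Venus and -5.76 and -5.29 with OASIS. Their log2 fold changes were 0.13 (adjusted p = 0.43) and -0.25 (adjusted p = 0.47) by limma, of opposite sign. On the first the OASIS arrays lay only 0.019 above the Venus arrays at the nearest, and on the second the groups overlapped. Of the untested probes, A_55_P2619020 was well above background on 1 Venus array and the other on none.

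The elastic fibre genes did not pass the threshold by their brightest probes either, and a single dim Fbn1 probe did. Fibrillin-1 (2qF1) is the main protein of microfibrils after birth. Its probes for the RefSeq transcript, A_55_P2931427 and A_51_P467224, gave log2 fold changes of 0.28 and 0.39. The first read -0.33 and -0.15 with Venus and 0.19 and -0.11 with OASIS (SE 0.15, adjusted p = 0.23). The second read -0.85 and -0.75 with Venus and -0.30 and -0.52 with OASIS (SE 0.13, adjusted p = 0.088). On both, the OASIS arrays lay above the Venus arrays by a change well short of 2-fold.

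The remaining Fbn1 probe, A_55_P2732863, annotated to a cDNA clone and not to the RefSeq transcript, read -7.66 and -8.39 with Venus and -5.67 and -5.45 with OASIS. It was well above background on both OASIS arrays and on neither Venus array, so that only a bound can be given, and the OASIS arrays were at least 1.48-fold higher. The fit gave it an adjusted p of 0.0091 by limma and counted it past the threshold. After normexp background correction its log2 fold change was 0.35 in place of a fitted 2.47, and it no longer passed. Which part of the gene this probe reads was not analysed here.

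Fibrillin-2 (18qD3), the fibrillin of developing tissue, has 3 probes, and 1 was tested. A_55_P2121096 read -3.85 and -4.01 with Venus and -3.69 and -3.66 with OASIS, a log2 fold change of 0.26 (SE 0.11, adjusted p = 0.15). The groups did not overlap on it, and the other 2 Fbn2 probes were not well above background on any array. Elastin (5qG2), the rubber-like core of the fibre, was close to background. Its brighter probe read -5.71 and -5.69 with Venus and -6.20 and -5.63 with OASIS, where the first OASIS array was not well above background. Its log2 fold change of -0.21 (SE 0.21, adjusted p = 0.50) became 0.072 without OASIS replicate 1, and the other Eln probe was not well above background on any array.

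Nidogen-1 (13qA1), the linker of basement membranes, had lower means with OASIS by both tested probes. The brighter, A_51_P339943, read 2.07 and 1.76 with Venus and 1.64 and 1.23 with OASIS. Both OASIS arrays lay below both Venus arrays, by 0.12 at the nearest, and the log2 fold change was -0.48 (SE 0.20, adjusted p = 0.14). The dimmer probe of the same transcript, A_55_P2084303, read -4.63 and -5.09 with Venus and -5.61 and -6.38 with OASIS, and was well above background on 1 of the OASIS arrays. The log2 fold change of this probe was -1.14 (SE 0.31), and with an adjusted p of 0.062 it passed the threshold. That call was lost without Venus replicate 1, without Venus replicate 2 and without OASIS replicate 2, where the log2 fold changes were -0.91, -1.37 and -0.75, and after normexp background correction, where it was -0.30. The remaining Nid1 probe was not well above background on any array.

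**Figure D2:**
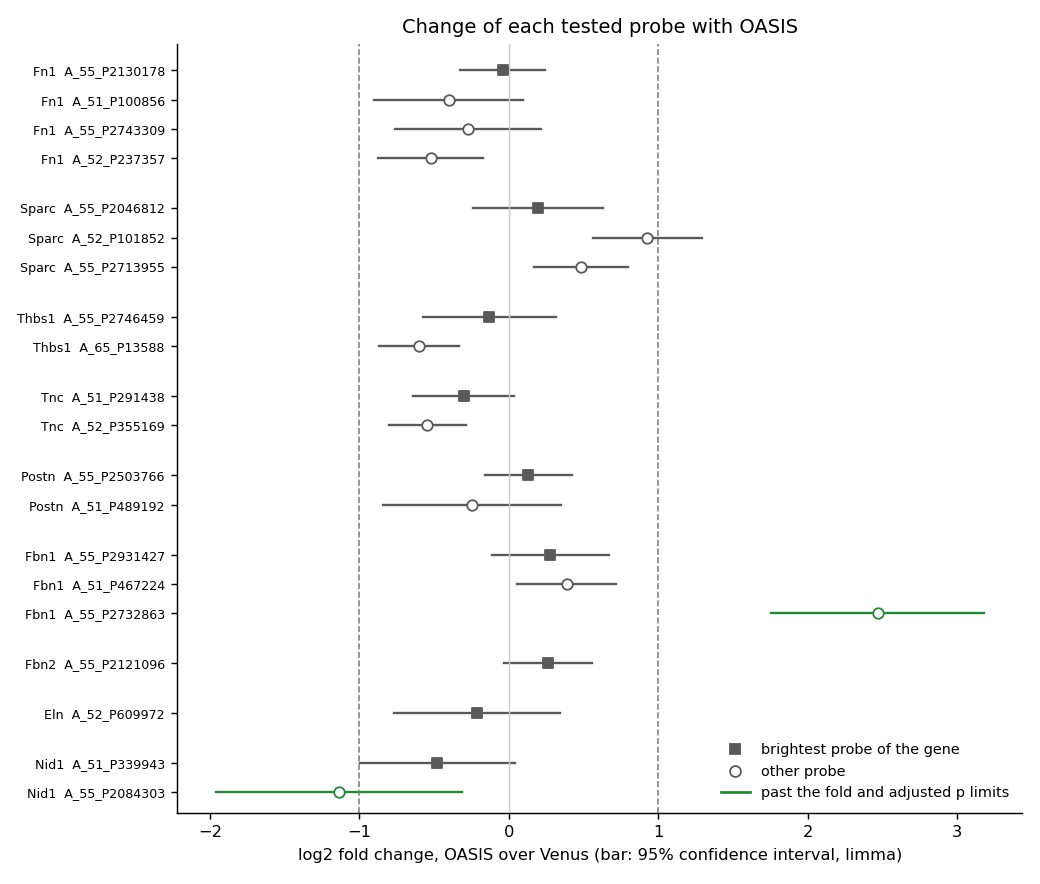
Log2 fold change of the OASIS over the Venus arrays for the 20 tested probes, with the brightest probe of each gene as a filled square and bars for the 95% confidence interval from limma. Dashed lines mark a 2-fold change, and the bars of 17 probes lie between them. The Fbn1 probe at the right is drawn at its fitted value, for which the data give only a bound.

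Over the 20 tested probes, 12 had lower and 8 had higher means with OASIS, and the median log2 fold change was -0.17 against -0.069 over all 31590 probes tested. Past both limits was 1 probe higher, that of Fbn1, and 1 lower, that of Nid1, which is 2 of 20 where 8.36% of all probes passed. Leaving the fold aside, 4 higher and 4 lower probes had an adjusted p under 0.1, beside 17% and 19.7% of all probes, 36.7% together. The 4 higher were 2 of Fbn1 and 2 of Sparc, and the 4 lower were 1 each of Fn1, Thbs1, Tnc and Nid1. Probes of a gene share its RNA and are not independent.

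Probes of a gene did not always move alike, and the difference between them was tested after these values had been seen. For each gene with several probes well above background on all arrays, the difference between a further probe and the brightest one was taken on each array, which removes the scaling of the arrays, and compared between the groups with limma over 10011 pairs. An adjusted p under 0.1 was found for 28.3% of all pairs and for 3 of 9 pairs of these genes. For Sparc, the difference between A_52_P101852 and the brightest probe was 0.73 on the log2 scale higher with OASIS (SE 0.14, adjusted p = 0.026). For A_52_P237357 of Fn1 the same quantity was -0.48 (SE 0.14, adjusted p = 0.076). For Thbs1 it was -0.47 (SE 0.15, adjusted p = 0.089), which missed the limit, at 0.11, when pairs with dimmer tested probes entered the fit. The Fbn1 clone probe and the dimmer Nid1 probe were not well above background on all arrays, so that no such difference is given for them.

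Other genes of the same systems were described from lists, with 74 listed genes in 5 lists, of which 59 were tested. Past the threshold were 4, all higher with OASIS, and 55 did not pass, while 15 had no tested probe. Among all genes tested, 8.07% passed, and most of these were higher too (6.22% higher and 1.85% lower). The lists were chosen with earlier results of these data known, so that this comparison does not test them. The median log2 fold change of the 59 was -0.028. Without OASIS replicate 2, the number past the threshold was 7, and 1 of these was a receptor gene with a lower value. Of 19 genes for microfibril and elastic fibre assembly, 16 were tested, 3 rose and none fell, and the median was -0.059. Lox, the lysyl oxidase that cross-links elastin and collagen, read 0.11 and 0.62 with Venus and 4.39 and 4.29 with OASIS, a log2 fold change of 3.98 (SE 0.20, adjusted p = 0.0026). Emilin2, of a family of glycoproteins found at elastic fibres, read -2.22 and -2.43 with Venus and 0.82 and 0.097 with OASIS and rose by 2.78 (SE 0.27, adjusted p = 0.0073). Emilin1, of the same family, was dim on the Venus arrays, where neither spot was well above background. It was at least 4.78-fold higher with OASIS. The adjusted p of 0.0068 by limma belongs to the fitted value of 4.18, not to this bound. Emilin1 met the filter through its OASIS arrays alone. The other 13 tested genes of this list lay between -0.35 and 0.38 by their brightest probes. They include fibulins, microfibril-associated proteins, latent TGF-β binding proteins and Loxl1. Of 4 tested Adamts10 probes 1 passed the threshold, and the highest value was 1.19, while a further Ltbp1 probe was at -0.93.

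**Figure D3:**
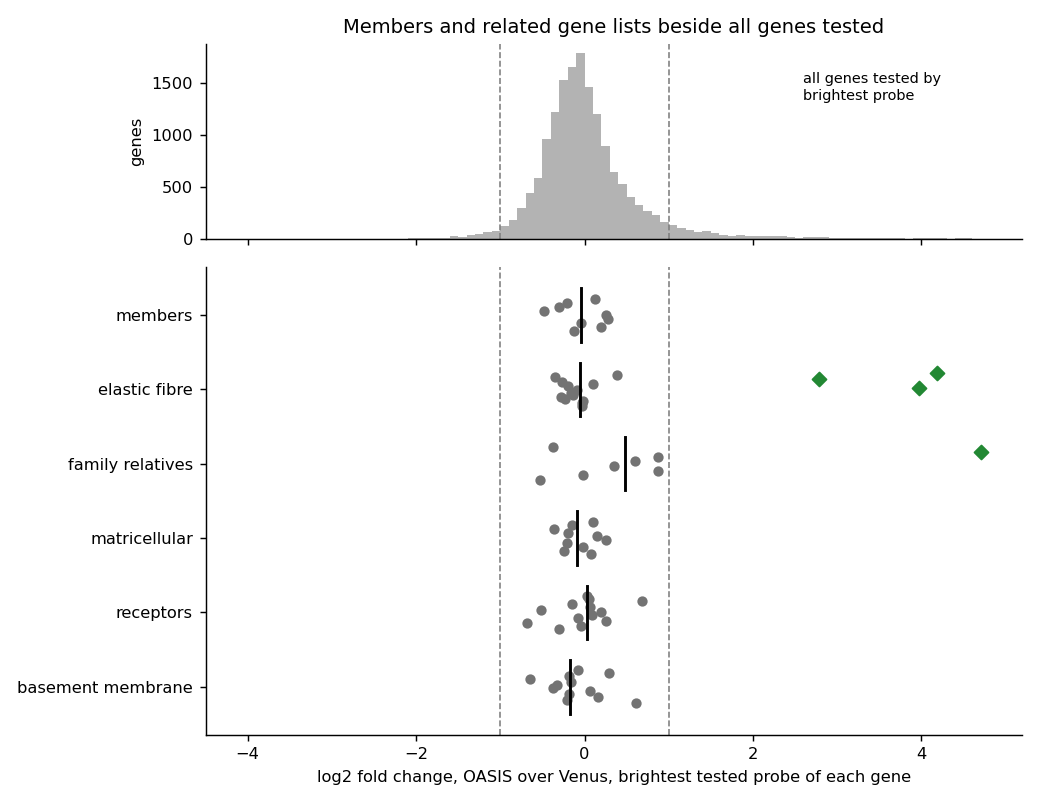
Log2 fold change of the brightest tested probe of each gene, for the 9 tested members and 5 lists of related genes below, and as a histogram over all genes tested above, cropped at the limits of the axis. Black bars are medians and dashed lines mark a 2-fold change. Green diamonds are genes past the threshold, which are Emilin2, Lox and Emilin1 among the elastic fibre genes and Tgfbi among the family relatives. Emilin1 and Tgfbi are drawn at their fitted values, for which the data give only a bound.

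Of 15 relatives of the thrombospondins, tenascins, SPARC, periostin and nidogen, 8 were tested and 1 rose, with a median of 0.48. It was Tgfbi, which shares the fasciclin domains of periostin. Its spots were not well above background with Venus, and it was at least 8.19-fold higher with OASIS. The adjusted p of 0.0053 by limma belongs to the fitted value of 4.70, not to this bound. Tgfbi met the filter through its OASIS arrays alone. Thbs3, at 0.88, and Nid2, at -0.37, did not pass, and they are named after their values had been seen. None of the 10 other matricellular genes tested, 13 receptors tested and 12 basement membrane partners of nidogen passed, with medians of -0.084, 0.031 and -0.17. With limma, the numbers of genes at an unadjusted p under 0.05 in these lists were 0, 3 and 2. By the methods' t-test they were 1, 4 and 1, with 0 past the threshold in each. Among all 16313 genes tested, 6681 had such a p with limma and 5251 by the t-test. The receptors include the fibronectin receptor Itga5, at 0.19, its partner Itgb1, at 0.031, and the thrombospondin receptor Cd47, at -0.51. Another Cd47 probe was past the threshold at 1.04. Itgb8 was at -0.69, and its other tested probe was past the threshold at -1.63. These receptors are named likewise after their values were seen.

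Markers of other cells were read from lists as well, and their part in the values above was not tested. The share of all genes tested that passed the threshold was 8.07%, with 6.22% higher and 1.85% lower. Of 7 genes listed as mesangial and myofibroblast markers, all tested, 1 passed, Ren1 (renin), which fell by 2.90 on the log2 scale (adjusted p = 0.0025). Cnn1 went the other way without passing, at 0.88 (adjusted p = 0.12 by limma). The other genes of this list had lower means with OASIS, with Pdgfrb nearly unchanged at -0.097. The summed linear intensity of this list was 77.2 and 78.6 with Venus and 62.7 and 65.2 with OASIS. This sum is weighted towards its brightest gene, Acta2, at 6.12 and 6.13 on the log2 scale with Venus and 5.85 and 5.87 with OASIS. Acta2 did not pass, at -0.27 (adjusted p = 0.11 by limma). The macrophage sum was also lower, at 18.6 and 17.5 with Venus and 14.6 and 14.4 with OASIS. It is weighted towards its brightest gene, Itgam, at 3.90 and 3.78 on the log2 scale with Venus and 3.41 and 3.26 with OASIS. Itgam and Cd68 had lower means, at -0.51 and -0.22. Csf1r, Lyz2 and Ptprc had higher means, at 0.74, 0.34 and 0.065, and the median of the list was 0.065. Endothelial and tubular sums were higher on both OASIS arrays, and podocyte sums overlapped. None of 3 endothelial or 5 macrophage markers tested passed, and 1 of 4 tubular markers did, Lrp2, at 1.62 (adjusted p = 0.015). Of 5 tested Lrp2 probes 2 passed, and the lowest was at -0.16. With the mean of a gene's probes, 0 tubular markers were higher past the threshold. Among the podocyte markers 2 rose by their brightest probes, Wt1 at 4.62 and Cd2ap at 1.09, with other tested probes of the same genes as low as -0.16 and -0.37. Cdh5, Kdr, Emcn and Tek, which define endothelium, had no tested probe.

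By likeness over the 4 arrays, Nid1 was followed, since its brightest probe had the largest change of those well above background on all arrays. After each gene was centred on its mean, the nearest brightest probes by Euclidean distance were those of Pcsk5 (0.030), Tssk1 (0.037) and St6galnac1 (0.047 log2 units). Their log2 fold changes were -0.50, -0.49 and -0.50. With 4 arrays in 2 groups, likeness says little beyond a similar difference and a similar order of the arrays.

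**Figure D4:**
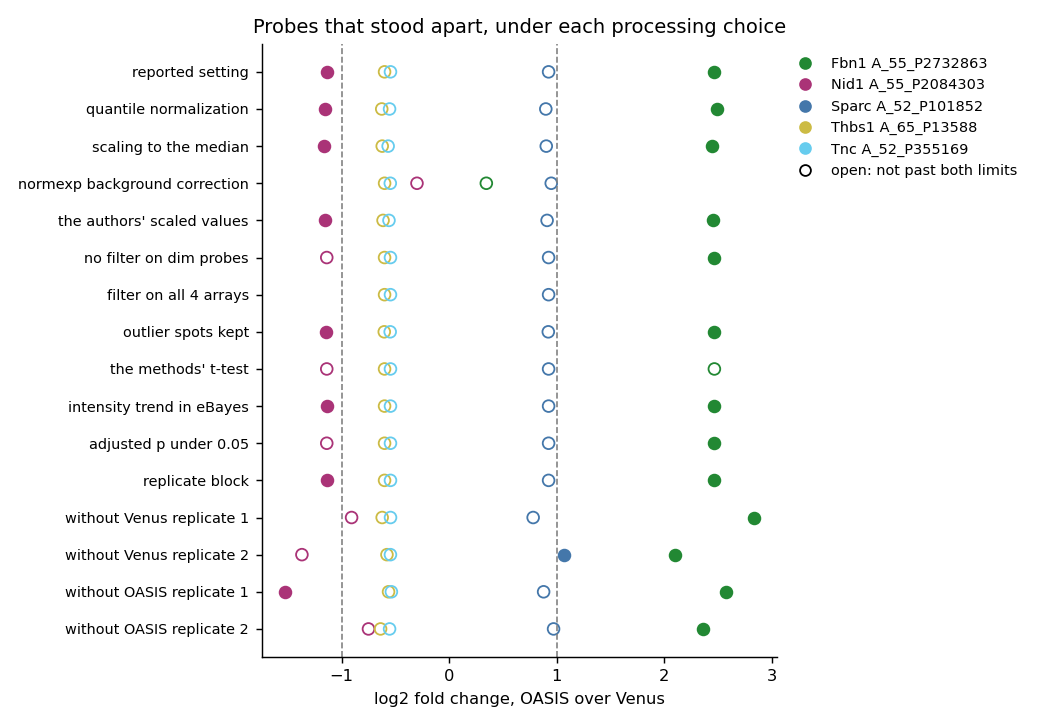
Log2 fold change of a probe each of Fbn1, Nid1, Sparc, Thbs1 and Tnc under the reported setting and each alternative that follows single probes, with filled marks where both limits were passed and dashed lines at a 2-fold change. The Fbn1 and Nid1 marks shift to 0.35 and -0.30 after normexp correction and are missing with the filter on all 4 arrays, whereas the Thbs1 and Tnc marks hardly shift.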

How the data were processed

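The authors deposited Agilent Feature Extraction 12.1.0.3 output of 1-colour arrays from 1 slide and 1 scan, which holds the background-corrected intensity and background marks of each spot. They also deposited that intensity times a constant per array (0.697 and 0.684 for Venus, 0.663 and 0.698 for OASIS). With it the authors gave a detection score of 0, 1 or 2 per spot, not used here, and the gene symbols and bands. How the constant was set is not given in the sources used here. From the corrected intensity, log2 was taken and the 75th percentile of each array subtracted, without control and outlier spots. Repeated spots were averaged per probe. A probe with a value on all arrays was tested if well above background on both arrays of a group, which left 31590 of 56605 probes. Models of limma 3.58.1 (R 4.3.3, files read with data.table, version 1.17.8) were fitted to all of them (lmFit, eBayes, Benjamini-Hochberg adjustment), and the fit was tested on simulated data. A gene was counted by its brightest tested probe, by mean over all arrays.

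A bound sets the brighter group's mean on the log2 scale against the mean, over the dimmer arrays, of the higher of the probe's value and the lowest value well above background. The number of arrays limits the precision. The genes were followed by every probe, list genes were named if past the threshold, up to 3 rises and 3 falls a list, and nearest genes were sought for the member with the largest change. The members and lists were chosen with earlier results of these data known. All 113 listed symbols were found, 6 through another name. Alternatives were other scaling, background correction, filters, probe summaries, tests and thresholds, a replicate block and leaving out each array. A slide block was not fitted, since there is 1 slide. Normexp used the median spot intensity and an offset of 50. A planned search of promoters for motifs was not run, and probe sequences were not used here.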

Additional observations from a re-analysis of the deposited data

How the results depend on the processing

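By brightest probe, 0 of the genes passed the threshold under each alternative except the mean of a gene's probes, where 1 passed, 1 higher, since the clone probe raised Fbn1 to 1.04 (adjusted p = 0.0089). The mean also turned Postn to -0.059. An adjusted p under 0.1 alone, met by 0 genes, was met by Nid1 and Tnc after normexp and with an intensity trend. Of all genes, 42.4% and 44.2% met it in these settings. Nid1 also met it with median scaling, the authors' scaled values or the replicate block, beside 36.4%, 35.4% and 43.2% of all genes. In each of these settings the values were lower with OASIS. The count of probes past both the fold and adjusted p limits was 2, with 1 higher and 1 lower. This count was 0, with 0 higher and 0 lower, after normexp, with detection required on all 4 arrays (which neither probe meets) and with the methods' t-test. It was 1, with 0 lower, with no filter and at an adjusted p under 0.05. The median over the probes, -0.17, was -0.054 after normexp and -0.13 with no filter or the filter on all arrays. The related genes past the threshold, 4, were 2 with the filter on all arrays, which leaves out Emilin1 and Tgfbi, and 1 with the t-test. Leaving out 1 array, the counts were 0 for genes, between 1 and 2 for probes, 1 and 2 for those higher, 0 and 1 for those lower and 4 and 7 for related genes, the 7 without OASIS replicate 2, and the median was between -0.22 and -0.0011. Such fits take the spread of a lone array to be that of the other group. Over them, the sign turned for Fn1 (between -0.10 and 0.019), Eln (-0.50 and 0.072) and Thbs1 (-0.32 and 0.059), none past the threshold. With the replicate block, 2 probes and 4 related genes passed, and no call changed. The numbers are not known to pair the samples, whose deviations correlated at 0.26 over probes. Over all genes, 1316 passed, and 789 did after normexp, 400 with the t-test and 1718 without OASIS replicate 2. The other causes were not tested. Signal close to background limits what Thbs2, Eln, Postn and Fbn2 can show.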
